A study of Mus musculus with 28 samples.

Results

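Apoe, Clu, Cst3, Sparc, Sparcl1, Fabp5, Fabp7 and Dbi are 8 genes for secreted proteins and small lipid carriers that are known from glia, and their RNA was followed here in 28 single mouse brain cells. The members were chosen by name, and all 8 of the 8 were present among the 23453 genes of the exonic count table and in the intronic table. By the sample labels, 12 cells were neurons and 8 were astrocytes from primary culture of C57/BL6 cells, picked with a pipette, and 8 were interneurons of the prefrontal cortex of C57/BL6/N mice, taken from acute slices through a patch clamp pipette. No treatment or engineered allele is given for any group. For the cultured cells the labels mention a male mouse of 3 months whereas the methods of the study describe cultures of embryonic brain kept for weeks, so the age of these cells was not settled. No animal or culture is named for any cell, and the cultured cells and the interneurons were prepared with different library kits and sequencers, so that cell type, preparation and library kit cannot be told apart where the interneurons are concerned.

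The columns of the tables carry codes that matched no sample label, and 0 of the 28 columns were assigned to a labelled cell. The cells were therefore described by 3 blocks of codes. The first BRP block was BRP564 and BRP566 to BRP572 (8 cells), the second BRP block was the other BRP codes (12 cells), and the F block was the codes that begin with F (8 cells). The blocks were set with marker genes and block sizes in view, so the markers are no independent support for them. They are not the labelled groups, no test was made between them, and cells are given by their lowest, median and highest values. Levels are exonic counts scaled to the cell's exonic total, as counts per 1000000 (CPM). Levels of different genes were compared only as CPM per kilobase of transcript or, where named, of annotated exons. A count of 0 allows a level of up to 3 counts of the total, which was 0.112 to 0.231 CPM in the BRP cells and 0.202 to 3.58 CPM in the F cells. These limits cover counting error only, since amplified reads are not independent molecules.

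Astrocytes are the brain's main source of apolipoprotein E and clusterin, the lipoproteins that carry cholesterol and other lipids between brain cells. Lipids inside a cell are moved by small soluble carriers, among them the fatty acid-binding proteins and the acyl-CoA-binding protein that Dbi encodes. Radial glia and astrocytes are known for high levels of the brain form of the fatty acid-binding proteins, and glia also secrete cystatin C and the matrix proteins SPARC and SPARC-like 1 (hevin), of which hevin favours and SPARC restrains the formation of excitatory synapses.

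The first BRP block carried the fixed astrocyte markers. All 8 of them were detected in all 8 of its cells, and Aqp4, the water channel of astrocyte endfeet, lay between 652 and 2062 CPM there. The neuronal marker Rbfox3 reached at most 0.152 CPM in this block against 21.4 to 288 CPM in the second. Of the 7 neuron markers, 5 were lower without overlap than in the second block, where 2.56% of genes were, while Map2 and Tubb3 overlapped. Map2 (236 to 484 CPM), Stmn2 (53.8 to 433 CPM) and Tubb3 (0.303 to 53.4 CPM) had counts in all 8 cells of the first block. This block is called astrocyte-like below. Its cells also held the progenitor genes Vim (7231 to 13996 CPM), Nes and Sox2 and the oligodendrocyte lineage gene Olig1 (432 to 1048 CPM). The second block was neuron-like, with all 7 neuron markers detected in all 12 cells. BRP528 and BRP529 stood apart within it, since they held astrocyte markers beside neuronal ones. Progenitor markers summed to 1368 and 2427 CPM in them, and oligodendrocyte precursor markers to 132 and 1277 CPM. The sum of 7 astrocyte markers, with Slc1a2 left out after its values were seen, was 1424 to 5894 CPM in the astrocyte-like block. It reached 1402 CPM in the second block but at most 53.4 CPM once BRP528 and BRP529 were left out. The whole list of 8 summed to 1522 to 6174 CPM, 191 to 2463 CPM and 0 to 4352 CPM in the 3 blocks, because the glutamate transporter gene Slc1a2 was higher in the second block (median 804 CPM) than in the first (192 CPM). In the F block Gad1 had a median of 2754 CPM and a count in all 8 cells, while Gad2 ran from 0 to 5801 CPM (median 10.2). F11 and F12 held little Gad1, but the GABAergic marker Slc32a1 was at 443 and 618 CPM there, against a block median of 531 CPM. In the same 2 cells Gad2 was at 15.7 and 0 CPM. Of the 7 neuron markers, Snap25 was at 1654 and 1439 CPM there and Syt1 at 180 and 150 CPM, while the others were low. Map2 was at 39.9 and 0 CPM, Stmn2 at 22.8 and 10.7 CPM and Rbfox3 at 2.51 and 8.87 CPM. Nefl was at 4.78 and 0 CPM and Tubb3 at 0.228 and 0 CPM. Over the whole F block the medians of Rbfox3 and Nefl were 0.125 and 0.527 CPM. By chi-square per degree of freedom the counts of F11 and F12 differed least of all pairs of cells. The value was 17.6, against 219 for BRP571 and BRP572 and 1261 for F2 and F16, the next F pair. By rank correlation over genes F11 and F12 were not the closest pair, at 0.53 against 0.54 for F1 with F11 and 0.88 for BRP571 with BRP572. The chi-square value was above counting error alone. Amplified reads are not independent molecules, so this cannot show whether F11 and F12 are different cells. They were kept as separate columns, but values that rest on them are given with and without them. Of the microglia markers only Csf1r in F16 was prominent (2093 CPM), and the endothelial marker Cldn5 was at 0 in all cells. F7 held the highest Olig1 level of all 28 cells, 3210 CPM, with the myelin gene Mbp at 156 CPM and Slc1a2 at 4350 CPM. Exonic totals were 838343 to 14831505 in the F block and 12969692 to 26770944 in the BRP blocks, and 2338 to 7218 genes were detected per F cell against 9869 to 12815 per BRP cell.

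Sequence before a listed start is shown for the members that RefSeq's promoter table held, so that the genes that were high together can be read side by side. Each line is the 100 bases before the most upstream listed start on GRCm38.p6, 5′ to 3′ on the gene's strand. The windows are chr7:19699189-19699288 (minus strand) for Apoe, chr2:148875513-148875612 (minus) for Cst3, chr11:55420081-55420180 (minus) for Sparc, chr10:57784823-57784922 (plus) for Fabp7 and chr1:120121097-120121196 (minus) for Dbi. Against the annotated gene spans given below, the Sparc and Cst3 windows lie inside the gene and the Fabp7 window lies partly inside. For these genes the listed start is therefore not the outermost annotated one, and the window need not be upstream of the gene. Capitals mark a match to a searched motif.
Apoe: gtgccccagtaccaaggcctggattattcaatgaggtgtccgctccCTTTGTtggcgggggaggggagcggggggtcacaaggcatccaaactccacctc
Cst3: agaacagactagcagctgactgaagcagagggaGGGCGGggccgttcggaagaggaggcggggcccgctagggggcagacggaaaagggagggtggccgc
Sparc: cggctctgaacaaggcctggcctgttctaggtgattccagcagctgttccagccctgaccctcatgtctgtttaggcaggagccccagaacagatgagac
Fabp7: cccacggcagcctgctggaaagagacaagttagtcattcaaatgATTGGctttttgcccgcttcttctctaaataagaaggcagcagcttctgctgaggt
Dbi: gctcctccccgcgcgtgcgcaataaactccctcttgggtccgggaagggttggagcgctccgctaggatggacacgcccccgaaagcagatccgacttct

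The motifs were searched on both strands. They were the TATA box as TATAA, the CCAAT box by that sequence, the GC box as GGGCGG, the E box as CACGTG and the SOX site as ACAAAG or as ACAATG. None of them contains another. Apoe held a SOX match, Cst3 a GC box and Fabp7 a CCAAT box, while the Sparc and Dbi windows held none of the 5. Among all 32851 promoters of the table, 10.5% held the SOX letters, 24.7% the GC box and 18.9% the CCAAT box in the same window. No motif was shared by these 5 windows. Clu, Sparcl1 and Fabp5 were not in the table.

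Taken as a set, the 8 genes had a higher median share of the exonic counts in the astrocyte-like block than in either other block. Their summed share of exonic counts was 0.808% to 1.43% there (median 1.07%). In the second block it was 0.0510% to 0.946% (median 0.0916%), and the top value belonged to BRP529. In the F block it was 0.00314% to 0.666% (median 0.142%), and F11 and F12 gave the highest values. Without them its highest value was 0.205% and its median 0.0954%. All 8 members had a count in all 20 BRP cells, as did 34.4% of all genes tested. No member (0 of 8) had a count in all 28 cells, which 1.38% of all genes had.

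**Figure D1:**
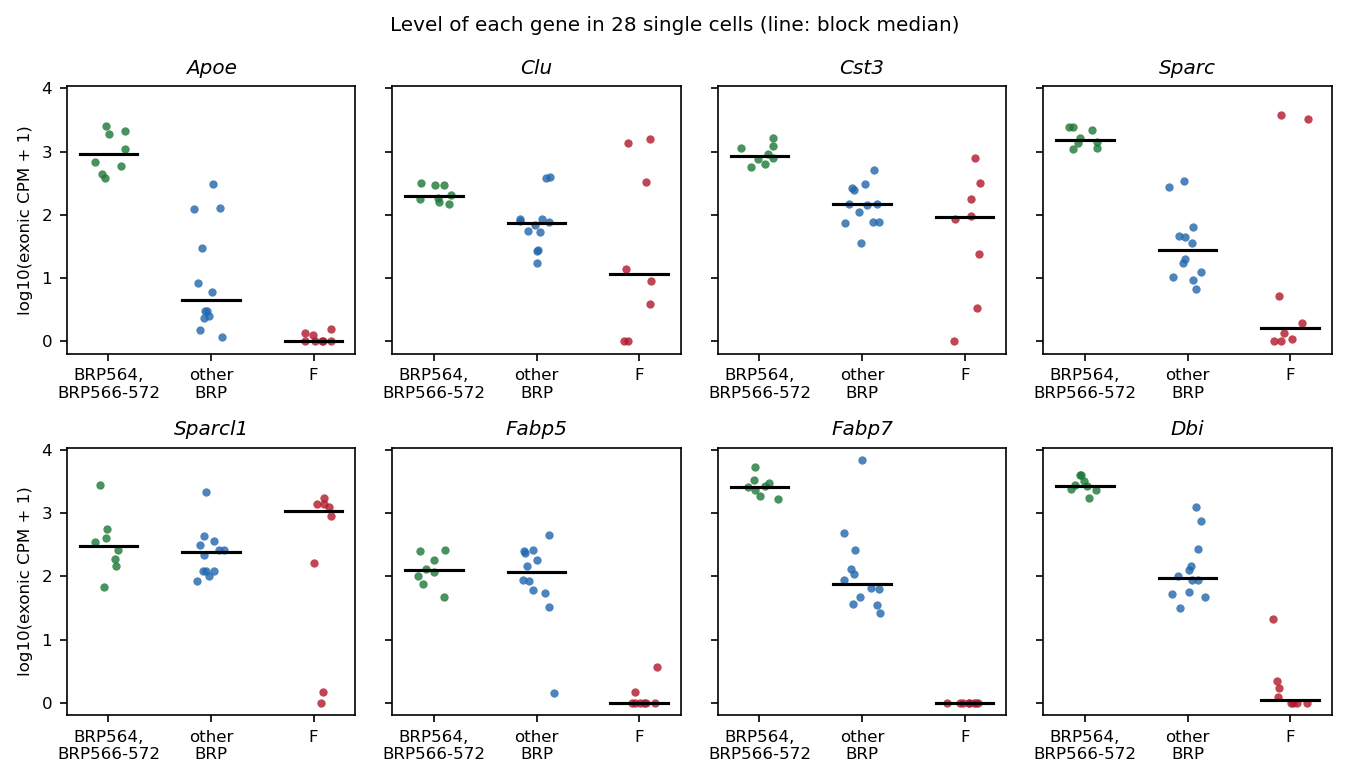
Level of each of the 8 genes in each of the 28 cells, as log10(exonic CPM + 1), by block of column codes; each point is a cell and each line a block median. Apoe, Cst3, Sparc and Dbi do not overlap between the astrocyte-like block and the other BRP cells, while Sparcl1 and Fabp5 overlap almost wholly, and Fabp7 is at 0 in all 8 F cells.

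Read gene by gene, 4 of the 8 members were higher in every astrocyte-like cell than in every cell of the second block, where 3.26% of 16110 genes did so. These were Apoe, Cst3, Sparc and Dbi. No member (0 of 8) was lower without overlap, against 2.56% of genes. A median at least 4-fold higher was found for these 4 and Fabp7, 5 of 8, where 21.7% of genes passed. Without BRP528 and BRP529 the members without overlap were 5, with Fabp7 added. Under DESeq2 size factors only Sparc (1 of 8) stayed clear of overlap, and under TMM factors Cst3 dropped out. The share of all genes is given only for all cells under total-count scaling. The counts without BRP528 and BRP529 or under other factors therefore have no background beside them.

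Among the secreted lipoproteins, Apoe, which encodes apolipoprotein E (chr7:19696109-19699188), had the widest separation. Its level was 384 to 2568 CPM in the astrocyte-like block (median 901). In the second block the median was 3.53 CPM, and the ratio of medians was 255. The lowest of those 12 cells were BRP537 at 0.187 CPM and BRP542 at 0.487 CPM, but BRP528 reached 311, BRP534 126 and BRP529 123 CPM. BRP528 and BRP529 also held astrocyte markers, whereas in BRP534 Aqp4 was at 28.9 CPM, against 142 CPM in BRP528 and 418 CPM in BRP529. The part of these markers in the Apoe values was not tested. Of the F cells, 3 of 8 had any Apoe count and the highest was 0.575 CPM. The astrocyte-like median was 1491 times the floor of 3 counts at the median F total.

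Clu (chr14:65968483-65981547), the gene for clusterin, behaved otherwise. It was even across the astrocyte-like cells, from 145 to 322 CPM (median 194), a spread of 2.21-fold. The second block ran from 16.3 to 392 CPM (median 73.1), and BRP537 and BRP543 exceeded every astrocyte-like cell. F11 and F12 had the highest Clu levels of all 28 cells, 1370 and 1570 CPM. The next among the F cells was F6 at 335 CPM, while F16 and F24 were at 0. Without F11 and F12 the F median was 5.50 CPM, against 10.5 CPM with them.

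Cst3 (chr2:148871722-148875692) encodes cystatin C, an inhibitor of lysosomal cysteine proteases that is secreted in quantity into cerebrospinal fluid. Its astrocyte-like levels were 563 to 1615 CPM (median 852), and its levels in the second block were 35.5 to 519 CPM (median 146), with BRP528 at the top. The ratio of medians was 5.86. The F cells ran from 0 in F24 to 794 CPM in F16 (median 89.9), and those values overlapped both other blocks.

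The matrix proteins gave opposite pictures. Sparc (chr11:55394500-55423183), the gene for SPARC, was at 1089 to 2446 CPM in the astrocyte-like block (median 1544) and at 5.77 to 345 CPM in the second (median 27.0), a ratio of 57.1. BRP528 and BRP529 were again its highest cells there, at 345 and 272 CPM, and none of the other 10 passed 64.4 CPM. Of the F cells, F11 had 3223 and F12 had 3739 CPM, above every astrocyte-like cell, and the other 6 had at most 4.26 CPM. Of the 8 astrocyte markers, 5 had a count in F11, with a sum of 6.38 CPM, and 0 had a count in F12. In other F cells some of them were high, with Slc1a2 at 4350 CPM in F7 and 637 CPM in F1, Aldoc at 556 CPM in F24 and 205 CPM in F1, and Gja1 at 183 CPM in F2, while Aldh1l1 and S100b were at 0 in all 8.

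Sparcl1 (chr5:104079111-104113733), the gene for hevin, overlaps the gene Gm26703. Since the strand setting of the counts is not given, reads of the pair cannot be told apart. Sparcl1 was at 66.7 to 2766 CPM in the astrocyte-like block (median 302) and at 84.0 to 2191 CPM in the second (median 238). Single cells set both upper ends: BRP564, at 2766 CPM, lay far above the next at 568 CPM, and BRP535 lay at 2191 CPM. The F block had the highest median, 1086 CPM, with 5 of its cells between 900 and 1725 CPM, F24 at 161 CPM, and F7 and F16 at or near 0. Sparcl1 was the only member (1 of 8) whose F median was above that of the second block under the total-count scaling, against 3.32% of genes tested. Cst3 joined it under TMM and DESeq2 factors. Without F11 and F12 the F median of Sparcl1 was 530 CPM.

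**Figure D2:**
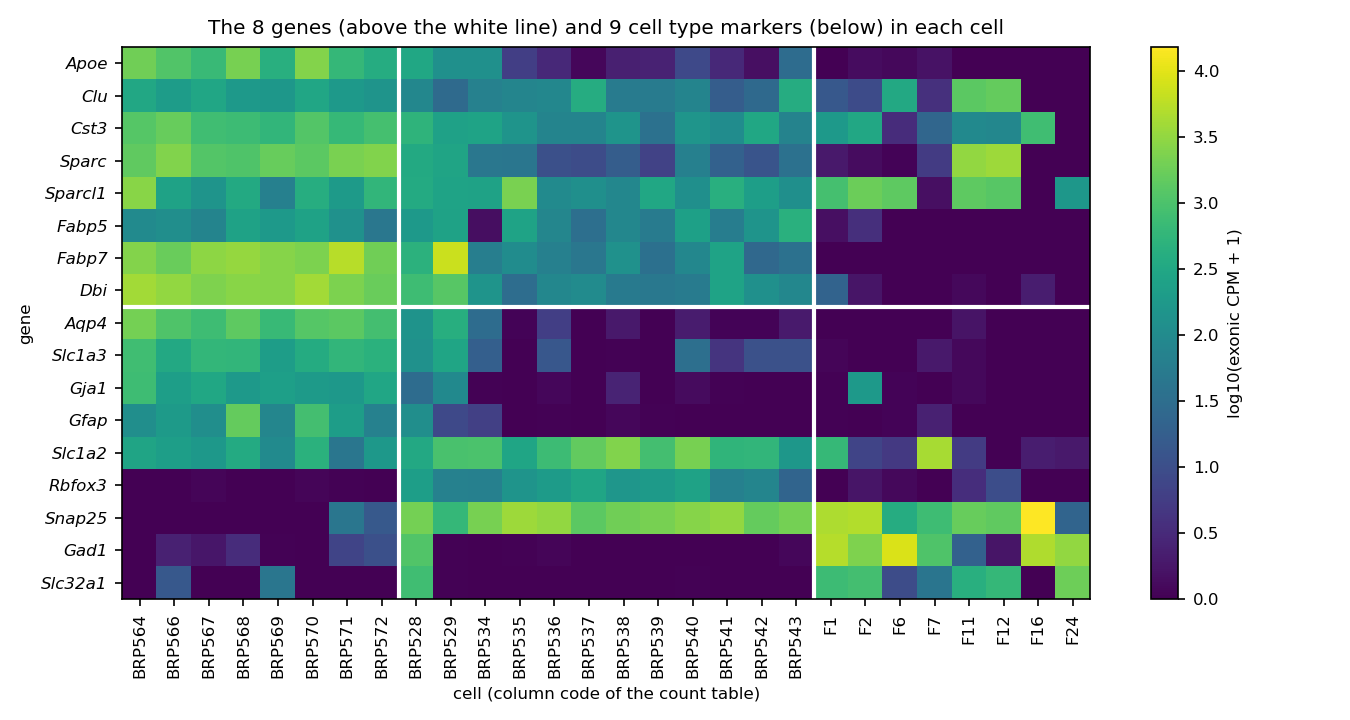
The 8 genes and 9 marker genes in each of the 28 cells, as log10(exonic CPM + 1), with white lines between blocks. BRP528 and BRP529 hold Aqp4, Slc1a3 and Gja1 beside Snap25, and F11 and F12 hold Sparc and Clu with almost no Aqp4 or Slc1a3.

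Among the lipid carriers, Fabp7 (chr10:57784881-57788450) encodes the brain fatty acid-binding protein of radial glia and astrocytes. In the astrocyte-like block it was at 1669 to 5335 CPM (median 2635), and BRP571 gave the highest value. In the second block the median was 75.4 CPM, and the ratio of medians was 34.9. The single highest level of all 28 cells was in that block, however, at 7008 CPM in BRP529, with 482 CPM in BRP528, 262 CPM in BRP541 and at most 128 CPM in the other 9. All 8 F cells were at 0, so the astrocyte-like median was at least 4359-fold higher.

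Fabp5 (chr3:10012548-10016607), the epidermal form of the same family, did not follow Fabp7. Its astrocyte-like levels were 45.4 to 256 CPM (median 124) and those of the second block 0.428 to 449 CPM (median 115). BRP534 was the only cell of the second block below 32 CPM, and BRP543 was the highest of all. Only 2 of 8 F cells had Fabp5 counts, with at most 2.71 CPM. Fabp5 has 5 processed pseudogenes at 93.6% to 98.3% identity, none of them in the count tables, so a part of its reads could have been lost or shared in the counting.

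Dbi (chr1:120113280-120121078) encodes the acyl-CoA-binding protein, also known as diazepam-binding inhibitor, which is secreted as well and is cut to peptides that act on GABA receptors. It was at 1707 to 4005 CPM in the astrocyte-like block (median 2732), and at 30.9 to 1263 CPM in the second (median 94.4), a ratio of 28.9. BRP529 and BRP528 were the highest cells of the second block, at 1263 and 760 CPM, and BRP541 followed at 269 CPM. In BRP529, BRP528 and BRP541 the oligodendrocyte precursor markers summed to 1277, 132 and 887 CPM. Dividing-cell markers summed to 142, 28.3 and 249 CPM in these cells. F1 had 20.2 CPM of Dbi and the other F cells at most 1.19 CPM. One processed pseudogene, Gm12222, has 93.9% identity to it.

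Every astrocyte-like cell was above every F cell for 4 of 8 members, Apoe, Fabp5, Fabp7 and Dbi, where 22.0% of 14463 genes were. Sparc made it 5 without F11 and F12, an exclusion for which no share of all genes is given. The F cells were shallower and were made with another kit, and those differences cannot be told apart from the blocks.

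Compared per kilobase of transcript, Dbi and Fabp7 were the most abundant members in the astrocyte-like block, with medians of 4802 and 3277 CPM per kb. Among all genes of a cell Dbi ranked between 2 and 7 there, and Fabp7 between 3 and 22. Cst3 (991), Sparc (671) and Apoe (640 CPM per kb) followed, and Fabp5 (125), Sparcl1 (110) and Clu (107) were lowest, with ranges that overlapped. In the second block the order was different: Cst3 (169), Dbi (166), Fabp5 (116), Fabp7 (93.8) and Sparcl1 (86.1 CPM per kb) overlapped in range, Clu (40.4) and Sparc (11.7) followed, and Apoe was lowest at 2.51 CPM per kb. Among the F cells Sparcl1 led at 394 CPM per kb, and Cst3 followed at 105. The order depended on the length used. With the union of annotated exons, Fabp7 (2108) lay above Dbi (1921 CPM per kb) in the astrocyte-like block. In the second block Sparcl1 (80.9) then lay above Dbi (66.4), and Fabp5 fell to 32.1 CPM per kb.

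**Figure D3:**
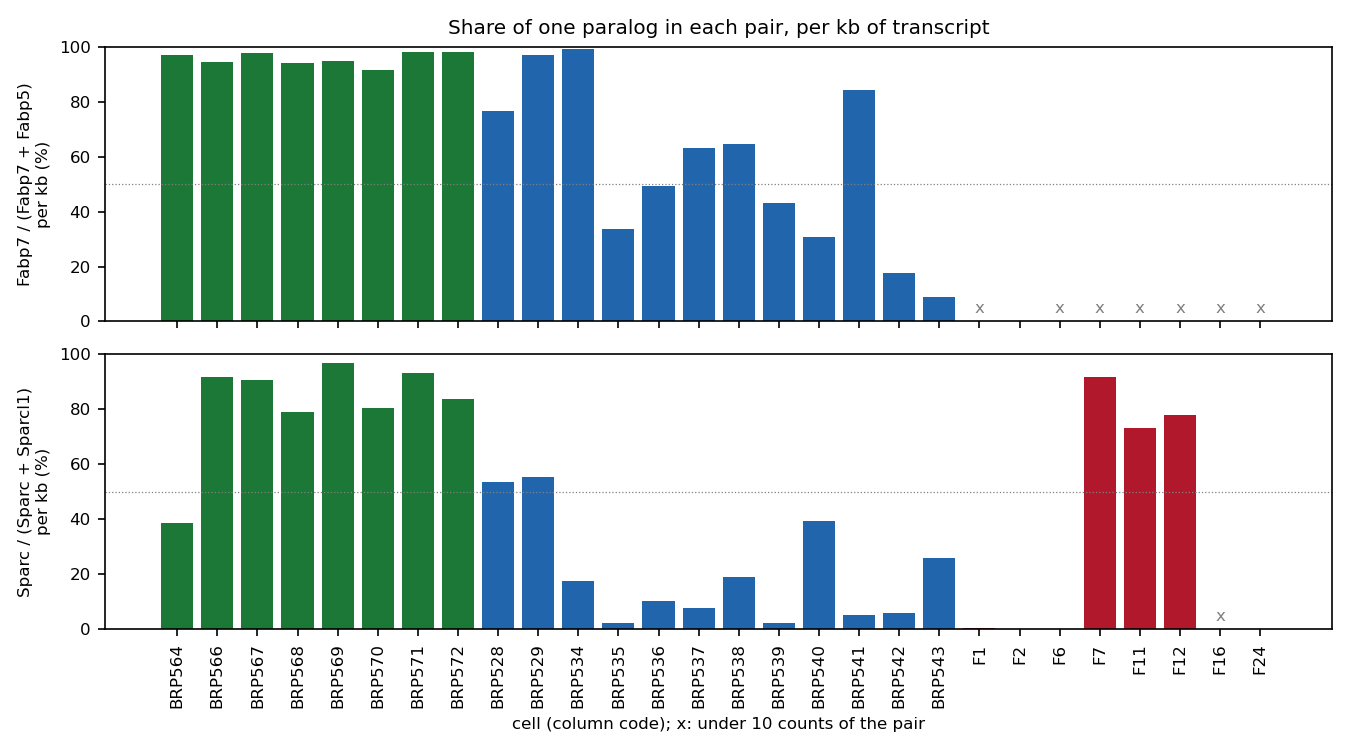
Share of Fabp7 in Fabp5 plus Fabp7 (top) and of Sparc in Sparc plus Sparcl1 (bottom) in each cell, per kb of transcript, with grey crosses where the pair had under 10 counts. Fabp7 makes up 91.8% or more in every astrocyte-like cell, and F2, the only F cell with enough counts, is at 0%.

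Within the fatty acid-binding pair, Fabp7 made up 91.8% to 98.1% per kilobase in the 8 astrocyte-like cells (median 95.9%). In the second block the share ran from 8.82% in BRP543 to 99.4% in BRP534 (median 56.3%), and 6 of its 12 cells were above 50%. These shares rest on transcripts of 804 bases for Fabp7 and 987 for Fabp5. With the union of annotated exons (1250 and 3567 bases) the second-block medians were 60.3 CPM per kb for Fabp7 and 32.1 for Fabp5, so its shares would be higher. Within the SPARC pair, Sparc made up 79.1% to 96.7% in 7 astrocyte-like cells and 38.4% in BRP564, the cell of the high Sparcl1 level. In the second block it was 2.18% to 55.4% (median 13.8%), with BRP528 and BRP529 the only 2 above 50%. F11 and F12 stood at 73.2% and 77.9%, F7 at 91.7% on few counts, and the 4 others with at least 10 counts at 0.126% or less.

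**Figure D4:**
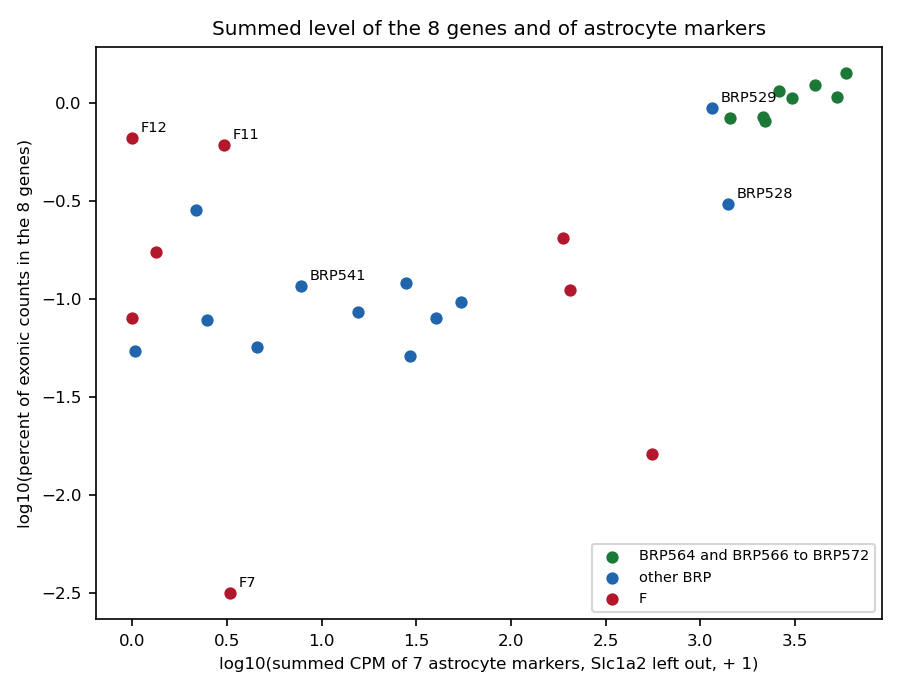
Percent of exonic counts in the 8 genes against the summed CPM of 7 astrocyte markers (Slc1a2 left out), both on log10 scales, with one point per cell. BRP528 and BRP529 sit beside the astrocyte-like cells on the marker axis, whereas F11 and F12 reach 0.611% and 0.666% on the share axis at a marker sum near 0.

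Over the 12 cells of the second block, the rank correlation (Spearman's rho) with that marker sum was 0.76 for Sparc, 0.75 for Apoe, 0.71 for Dbi and 0.63 for Cst3. It was 0.43 for Fabp7, 0.22 for Fabp5, 0.03 for Clu and -0.08 for Sparcl1. Over the 8 astrocyte-like cells it was 0.79 for Apoe, 0.74 for Sparcl1, 0.67 for Dbi, 0.55 for Cst3, 0.45 for Clu, 0.29 for Fabp5, -0.07 for Fabp7 and -0.31 for Sparc. These are descriptions over cells that share preparation and depth. Over the 20 BRP cells the members nearest to each other were Apoe with Sparc (0.87), Cst3 with Sparc (0.88) and Cst3 with Dbi (0.87), a measure that the difference between the blocks fills.

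By the same measure over all genes with at least 1000 exonic counts, the genes most like Apoe over the 20 BRP cells were Sdc4 (0.95), Aldh1l1 (0.95), an astrocyte marker, and Vim (0.94). Those of Sparc were Ctgf (0.95), Lrrk1 (0.95) and Slc12a7 (0.94), those of Cst3 were Tppp3 (0.93), S1pr3 (0.91) and Timp3 (0.91), and those of Dbi were the ribosomal protein genes Rpl11 (0.93) and Rpl23 (0.93) and Ahnak (0.93). For Fabp7 they were Rpa2, Dhrs7 and Rin2, all at 0.90, and for Clu Copb2, 2310009A05Rik and Tomm40 at 0.81 to 0.82. Fabp5 (Rfwd3, 0.73, Mrps36 and Dctn2) and Sparcl1 (Rabggtb, 0.70, Heatr5a and Gaa) had no gene as close. Over all 28 cells the nearest were Hspb8, Vim and Ccng1 for Apoe (0.94 to 0.96), Wnk1, Sox9 and Tor1aip1 for Sparc, S100a16, Smim4 and Scd1 for Fabp7, and Ahnak, Rpl13 and Rps27l for Dbi. For Clu they were Gnb2l1, Rps15a and Psmd4, for Cst3 Eef1b2, Hipk1 and Wbp5, for Fabp5 Rfwd3, Mrps36 and Golga2, and for Sparcl1 Drap1 (0.58), Blcap and Tm9sf3.

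Partners of the members were read from lists of receptors, exporters and family members. Of the 11 lipoprotein receptor and sorting genes, 0 were higher or lower without overlap in the astrocyte-like block than in the second. Lrpap1, the chaperone of these receptors, was at a median of 162 CPM in the astrocyte-like block and 332 CPM in the second, and Vldlr, a receptor for apolipoprotein E and reelin, was at 7.96 and 181 CPM. The reelin receptor gene Lrp8 was alike in median (140 and 142 CPM), and the sorting receptor gene Sort1 was at 57.1 and 110 CPM. Of 11 tested genes of cholesterol export and lipoprotein remodelling, 2 were higher without overlap. Abca1, which loads lipid onto apolipoprotein E, was among them, at 228 to 1049 CPM against 0 to 123 CPM. The other was Pltp, the phospholipid transfer protein gene, at 3.47 to 24.1 CPM against 0.0896 to 1.34 CPM. Abcg1 (medians of 0.0617 and 6.42 CPM) and Abca7 (2.39 and 5.43 CPM), transporter genes of the same superfamily as Abca1, were low, and the lipase gene Lpl ran from 0 to 165 CPM and from 0 to 627 CPM.

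**Figure D5:**
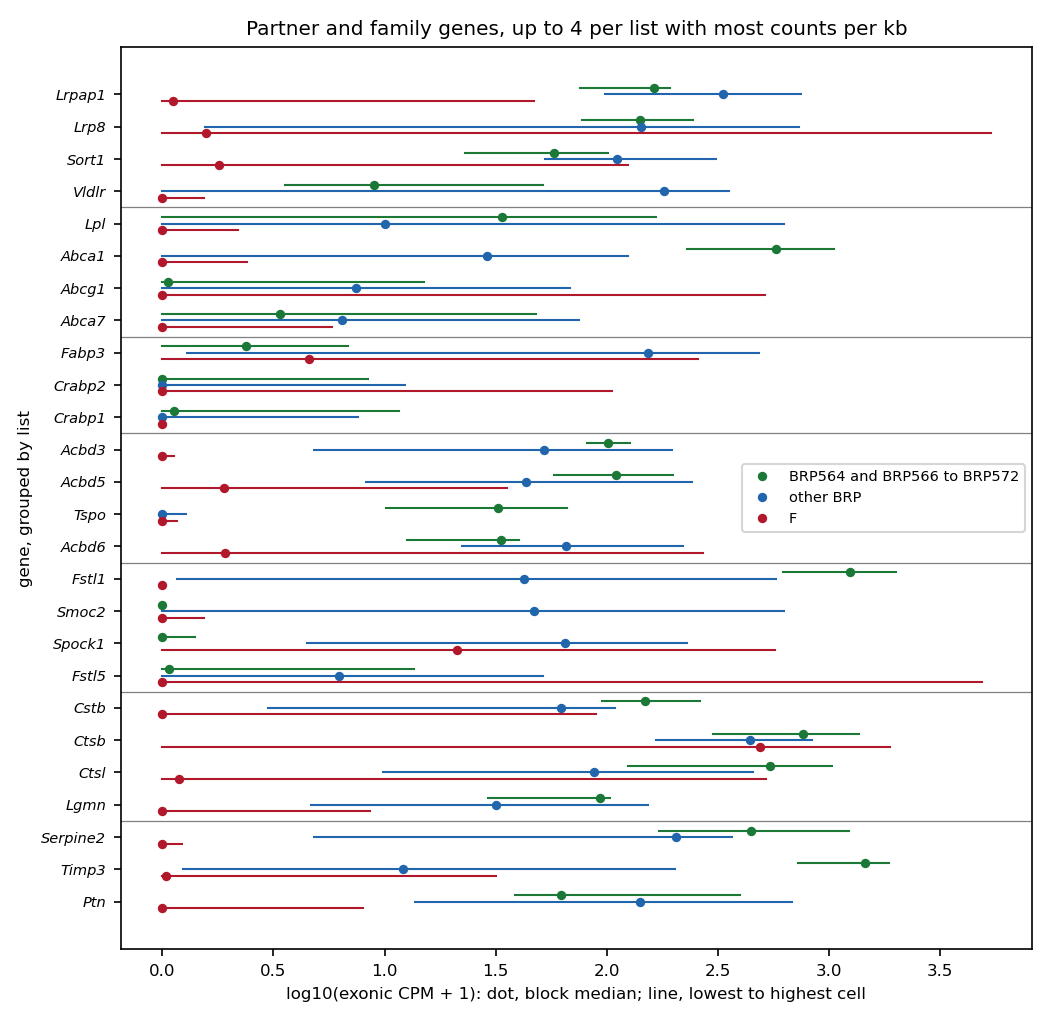
Median (dot) and range (line) of log10(exonic CPM + 1) in each block for up to 4 genes of each list, those with most exonic counts per kb, with grey lines between lists. Abca1, Tspo, Fstl1 and Timp3 lie higher without overlap in the astrocyte-like block than in the second, and Spock1 lies lower.

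Among the other intracellular lipid-binding proteins, 0 of 6 tested genes separated without overlap. Fabp3, the heart form, had a median of 1.38 CPM in the astrocyte-like block against 153 CPM in the second. Crabp1 and Crabp2 were at or near 0 in most cells. Of the 7 acyl-CoA-binding and receptor genes, 2 were higher without overlap, among them Tspo, which encodes the mitochondrial protein that the Dbi product binds, at 9.18 to 64.8 CPM against at most 0.286 CPM. The other was Eci2, an enoyl-CoA isomerase gene, at 19.9 to 155 CPM against at most 10.8 CPM. Acbd3, Acbd5 and Acbd6 overlapped between the blocks.

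In the SPARC family 1 of 7 genes was higher and 1 lower without overlap. Fstl1 was at 619 to 1998 CPM in the astrocyte-like block against 0.164 to 576 CPM, and was at 0 in all F cells, F11 and F12 included. Spock1 was at no more than 0.408 CPM against 3.47 to 229 CPM, and Smoc2 was at 0 in all 8 astrocyte-like cells. Of the 9 tested cystatins and cysteine proteases 1 was higher without overlap, the cathepsin Z gene Ctsz at 8.25 to 34.4 CPM against at most 4.68 CPM. Cathepsin B (Ctsb), a protease that cystatin C inhibits, overlapped in all 3 blocks, with medians of 764, 438 and 490 CPM, cathepsin L (Ctsl) was at 539 and 86.7 CPM in the BRP blocks, and the inhibitor gene Cstb was at 147 and 61.1 CPM. Of 12 genes listed for other glial secreted proteins, 2 were higher without overlap. Timp3, a metalloproteinase inhibitor gene, was at 719 to 1849 CPM against 0.246 to 200 CPM. Thbs1, the gene for the synapse-promoting matrix protein thrombospondin 1, was at 347 to 1423 CPM against at most 86.9 CPM. Serpine2 (medians of 445 and 204 CPM) and Ptn (61.0 and 140 CPM) overlapped.

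Intronic counts of the members were few. Cst3 had 0 intronic counts beside 180425 exonic ones (share at most 0.00204%, 95% exact binomial interval), Apoe had 1 and Fabp5 had 2. The share was 0.0152% for Dbi, 0.0209% for Fabp7 and 0.165% for Sparc, against a median of 3.75% over the 6512 genes with at least 10000 exonic counts. Sparcl1 had 1.87%, of which BRP540 gave 54.1%. Clu had 8.39%, but 99.4% of its intronic counts were in F6, which held 6826 beside 4039 exonic counts. The annotated introns of Sparcl1 span 31686 bases and those of Apoe 942, and the shares were not corrected for intron length.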

How the data were processed

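RNA-seq of 28 single mouse cells was analysed. The authors deposited raw counts per gene and cell, as whole numbers, for exons and for introns. Per the labels, STAR 2.4.0, bcl2fastq 2.17 and mm10 were used in processing; the counting tool, annotation, strand setting and filters are not given in the sources used here. All columns were used, and 0 were matched to a sample, so the cells were treated as 1 pooled sample and described by blocks of column codes, without tests. Cells do not replace samples, and the labels name no animal or culture.

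Exonic counts were divided by the cell's exonic total (CPM). Per-length levels used the principal transcript of GENCODE M21 (GRCm38), with a length found for 98.6% of genes. The union of a gene's annotated exons was used only where named. Non-overlap means that the lowest cell of one block lay above the highest of the other, among genes with at least 10 exonic counts over both blocks. Ratios of medians used a floor of 3 counts at the block's median total, which is lower than the limit of the shallowest cells. Near copies were sought with BLAST 2.17.0 (at least 90% identity over 100 bases). Members, lists, markers and blocks were chosen with earlier results of these data known. The genes named were all 8 members, the 3 genes with the highest rho for each member, and up to 4 genes of each list with most exonic counts per kb; some results of these lists are not reported here. Other genes (Rbfox3, Aqp4, Csf1r and further markers) were named after their values were seen. Alternatives were TMM factors (edgeR 4.0.16), size factors (DESeq2 1.42.0, R 4.3.3), intronic counts added, the total without the 10 most counted genes, thinning to 800000 counts, other pseudocounts (0.1 and 10 in place of 1) and filters, and each cell left out. The non-overlap and ratio calls were tested on simulated counts. Calculations ran in Python 3.11.15 (pandas 2.3.3; numpy 2.4.6; scipy 1.17.1).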

Additional observations from a re-analysis of the deposited data

Results flagged for a closer look

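Among 15 groups of values, each of 1 gene in a block of 8 cells, 5 values stood farther from the other cells than Dixon's 95% critical value. That limit is set for normally distributed values, whereas these were unlogged CPM, skewed and in part at 0. How often chance passes it here is therefore not known, least of all for Fabp5, with counts in 2 of 8 F cells. Sparcl1 in BRP564 was at 2766 CPM against 568 CPM in the next cell. Fabp7 in BRP571 was at 5335 CPM against 3304 CPM. Among the F cells, Cst3 in F16 was at 794 CPM (666 counts, in the shallowest cell) against 317 CPM, Dbi in F1 was at 20.2 CPM (299 counts) against 1.19 CPM, and Fabp5 in F2 was at 2.71 CPM (15 counts) against 0.472 CPM. The second BRP block has 12 cells and was not examined in this way.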

How the results depend on the processing

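No paired analysis was possible because the columns carry no replicate number and no test was made. The scaling mattered most: relative to totals, TMM and DESeq2 factors raised the median scale of the F cells against the second BRP block by 1.31 and 2.30 (log2), and changed that of the astrocyte-like block by -0.17 and -0.40. Under both, the members with a higher F median than the second block were 2, not 1, since the Cst3 difference turned from lower to higher (0.95 and 1.89 on the log2 scale), and the small Fabp5 difference of the BRP blocks turned from 0.15 to -0.041 and -0.23. Under DESeq2 factors the members higher without overlap in the astrocyte-like block fell from 4 to 1, and the median summed share of the members in the F block, taken of the scaled total, moved from 0.142% to 0.675%. Under TMM that of the astrocyte-like block moved from 1.07% to 0.736%. The Fabp5 difference also turned to -0.22 without BRP541, an exclusion chosen after seeing the data, and it ran from -0.22, in 6 of the settings that left out 1 cell, to 0.53. The number of members with a count in every cell was 0 to 1 when each cell was left out, with 1 without F16 or F24. The cause of these changes was not tested. Depth limits the F cells most, of which F16 had 838343 exonic counts.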
